A study of Mus musculus with 12 samples.

Results

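Collagen chain genes encode the α chains that fold in threes into every collagen, and 42 of them were measured in cultured fibro-adipogenic progenitors (FAPs) of mouse limb muscle. They were taken as all gene IDs with a symbol of the form Col, number, a, number, and with 10 or more reads summed over the 12 libraries. Of the 55335 gene rows, 44 had such a symbol and 21755 had 10 or more reads; Col9a1 with 7 reads and Col26a1 with 9 reads were left out. By the structure of their product, 11 of the 42 were fibrillar, 8 fibril-associated (FACIT) and 8 of basement membranes (type IV and the multiplexins Col15a1 and Col18a1). A further 11 were network-forming or other filament-forming chains (types VI, VII, VIII, X and XXVIII), called network chains below, and 4 were transmembrane. After the filter on low counts 36 could be tested; Col6a5, Col6a6, Col9a2, Col13a1, Col19a1 and Col25a1 could not.

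FAPs are the PDGFRα-expressing mesenchymal cells between muscle fibres, and they are the main makers of muscle matrix. Fibrillar collagens I, III and V assemble into the fibres that carry tension, FACIT collagens decorate those fibres, type IV forms the sheet of basement membranes, and type VI forms beaded filaments beside them. Chains are modified, folded and trimmed by a dedicated set of enzymes, and partner chains (COL1A1 with COL1A2, COL4A1 with COL4A2, COL6A1 with COL6A2 and COL6A3) are built into the same trimer.

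The study compared FAPs sorted as Lin-, Vcam-, Sca1+ from limb muscle and grown in serum, in 4 groups of 3 libraries. Smn1OE_K186R cells received 4-hydroxytamoxifen (4-OHT) for deletion of Bap1, a nuclear deubiquitinase, together with a vector carrying human SMN with the K186R change; SMN is the protein lost in spinal muscular atrophy. Smn1OE cells received 4-OHT and a vector carrying SMN without that change, Bap1KO cells received 4-OHT with no vector named, and WT cells received ethanol. Both SMN groups thus carried the same Bap1 deletion treatment as Bap1KO, no group carried an empty vector, and no group received 4-OHT without the deletion, so vector and SMN, and 4-OHT and deletion, cannot be told apart. The labels name Rosa-CreER in the treatment text, but floxed Bap1 with Prrx1Cre, which acts in limb mesenchyme, in the source of the treated cells, and a wild-type mouse for WT. Age is not given. The labels do not say whether the 3 libraries of a group came from separate animals, so p-values measure the spread between these libraries, which may be technical.

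Each library held 51198342 to 68216089 reads in genes. Bap1 averaged 45.3 ± 3.15 CPM (depth-normalised read counts) in Smn1OE_K186R cells, 49.1 ± 1.4 CPM in Smn1OE cells, 40.3 ± 1.74 CPM in Bap1KO cells and 50.5 ± 1.32 CPM in WT cells (SD, n = 3 each). Thus Bap1 was lower in every Bap1KO library than in every WT library, and Smn1OE libraries were near WT although labelled with the same deletion treatment; gene totals do not show which exons the reads came from. By edgeR, Bap1 was -0.32 ± 0.07 log2 units (SE) in Bap1KO against WT, adjusted p = 0.0139, which did not pass without WT replicate 3, Bap1KO replicate 2 or Bap1KO replicate 3 (highest adjusted p over the alternatives 0.0689, lowest 0.00167), and 0.28 ± 0.07 in Smn1OE against Bap1KO, adjusted p = 0.00924. Smn1 was 119.9-fold higher in Smn1OE_K186R and 145-fold higher in Smn1OE than in Bap1KO. Batches of culture medium, given in the labels, held replicates 1, 2 and 3 of Bap1KO and WT as batches A, B and C and those of both SMN groups as batches D, E and F, so that medium and SMN cannot be told apart. The 4 Y-linked genes examined were at 0 in all Bap1KO and WT libraries and read in all SMN libraries, so sex of origin cannot be told apart from SMN either. Of the 9 FAP markers, Dpp4 was under 1 CPM in every library, and their summed level was 828 to 1121 CPM in Smn1OE_K186R cells, 692 to 1055 CPM in Smn1OE cells, 1558 to 2166 CPM in Bap1KO cells and 2384 to 2806 CPM in WT cells. Against Bap1KO, 4 of the 9 were called lower and Cd34 higher in Smn1OE_K186R, and 5 lower and Cd34 higher in Smn1OE. Of all genes tested, 16.5% were lower and 16.1% higher in Smn1OE_K186R, and 17.7% lower and 15.8% higher in Smn1OE. In Bap1KO against WT, Pdgfra was called lower and Tcf7l2 higher, beside 6.37% of all genes tested lower and 3.36% higher. With pairing by medium batch 7 of the 9 were lower (Pdgfra, Ly6a, Pdgfrb, Dcn, Cd34, Thy1 and Osr1) and Tcf7l2 higher, beside 17.2% lower and 11.9% higher. The part of these marker shifts in the collagen values was not tested. In such bulk samples, fewer cells of a type and less RNA per cell cannot be told apart.

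Collagen transcripts took a smaller share of the reads in the SMN libraries. The 42 genes held 1.61, 1.9 and 1.48% of gene reads in Smn1OE_K186R cells, 1.34, 1.6 and 1.41% in Smn1OE cells, 3.48, 2.24 and 3.24% in Bap1KO cells and 3.79, 2.98 and 4.07% in WT cells. The mean was 1.67 ± 0.215% in Smn1OE_K186R, 1.45 ± 0.133% in Smn1OE, 2.98 ± 0.657% in Bap1KO and 3.62 ± 0.566% in WT (SD, n = 3 each). Every library of either SMN group lay below every Bap1KO and WT library, while Bap1KO and WT overlapped. An exact two-sided permutation test of the share gave p = 0.1 for each SMN group against Bap1KO, the smallest that 3 against 3 can give, p = 0.3 for Bap1KO against WT and p = 0.2 for Smn1OE_K186R against Smn1OE. That test did not pair the libraries by medium batch. Within each batch the share was lower in Bap1KO than in WT, and higher in Smn1OE_K186R than in Smn1OE. No paired test of the share was run.

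**Figure D1:**
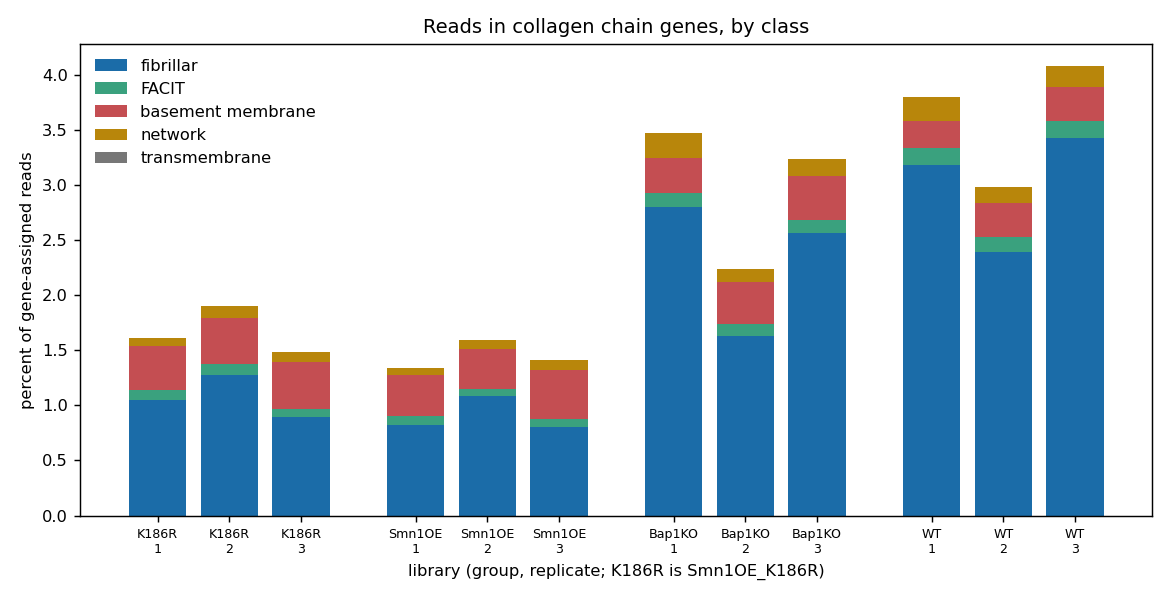
Percent of gene-assigned reads (vertical axis) in collagen chain genes for each of the 12 libraries (horizontal axis), stacked by class. The 6 SMN libraries lie between 1.34 and 1.90%, the Bap1KO and WT libraries between 2.24 and 4.07%; the basement membrane part spans 0.247 to 0.451% over all 12.

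Fibrillar chains made up most of the difference. Fibrillar chains took 1.07 ± 0.191% of gene reads in Smn1OE_K186R cells, 0.904 ± 0.156% in Smn1OE cells, 2.33 ± 0.616% in Bap1KO cells and 3.0 ± 0.538% in WT cells (SD, n = 3 each). Basement membrane chains took 0.415 ± 0.0189% in Smn1OE_K186R cells, 0.398 ± 0.0471% in Smn1OE cells, 0.362 ± 0.0439% in Bap1KO cells and 0.287 ± 0.0342% in WT cells. Among collagen reads alone, type IV therefore made up 24.3, 21.9 and 29.0% in Smn1OE_K186R cells, 28.1, 22.8 and 31.9% in Smn1OE cells, 8.88, 16.9 and 12.1% in Bap1KO cells and 6.43, 10.2 and 7.42% in WT cells. Type I, the collagen of tendon, bone and skin, made up 33.7 ± 2.92% of collagen reads in Smn1OE_K186R, 32.2 ± 5.60% in Smn1OE, 47.3 ± 2.78% in Bap1KO and 52.9 ± 1.42% in WT cells.

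Per kilobase of exon, a scale on which genes can be compared, Col1a1 was the highest chain in every group, at 573 CPM per kb in Smn1OE_K186R, 485 in Smn1OE, 1438 in Bap1KO and 1931 in WT cells. Col4a1 was 2nd in both SMN groups, at 317.0 CPM per kb in Smn1OE_K186R cells and 307 CPM per kb in Smn1OE cells, but 5th in Bap1KO cells at 264 and 7th in WT cells at 203 CPM per kb. Col1a2 was 6th in both SMN groups, at 138 CPM per kb in Smn1OE_K186R and 111 in Smn1OE, 3rd in Bap1KO cells at 415 and 2nd in WT cells at 581 CPM per kb. Neighbours in this order did not always differ: Col5a2 (274 to 357) and Col4a1 (305 to 334 CPM per kb) overlapped across Smn1OE_K186R libraries, and Col5a2 (349 to 492) and Col1a2 (261 to 515 CPM per kb) across Bap1KO libraries.

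In the test of single genes (edgeR quasi-likelihood, Benjamini-Hochberg adjusted p under 0.05), 15 chains fell and 2 rose in Smn1OE_K186R against Bap1KO, and 18 fell and 2 rose in Smn1OE against Bap1KO. Of all 16597 genes tested, 32.6% were called in Smn1OE_K186R against Bap1KO and 33.5% in Smn1OE against Bap1KO, with 16.5% lower in Smn1OE_K186R and 17.7% lower in Smn1OE. Of the 36 chains, 47.2% were called in Smn1OE_K186R (41.7% lower) and 55.6% in Smn1OE (50% lower). The median log2 fold change over these 36 chains was -0.46 in Smn1OE_K186R and -0.68 in Smn1OE, against -0.01 in both comparisons over all genes tested. The same 15 chains were called lower in both comparisons, Col7a1 and Col20a1 were called higher in both, Col5a3, Col8a1 and Col28a1 were called lower in Smn1OE alone, and 16 were called in neither. Both comparisons use the same Bap1KO libraries, so their calls are not independent of each other. Without Bap1KO replicate 1, 11 chains were called in Smn1OE_K186R against Bap1KO in place of 17. With medium batch as a random effect (limma), 19 chains were called in Smn1OE_K186R (3 higher, 16 lower) beside 33% of all genes tested (16.3% higher, 16.7% lower), and 22 in Smn1OE (3 higher, 19 lower) beside 33.2% (15.9% higher, 17.3% lower). The 3 higher included Col4a3 in both comparisons. Its mean reached 10 reads in the SMN groups only, so it passed the filter through the groups where it was higher.

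Between Bap1KO and WT, Col24a1 was called lower and Col10a1 higher. These 2 of 36 are 5.56%, beside 9.72% of all genes tested (3.36% higher, 6.37% lower). When Bap1KO and WT libraries were paired by medium batch, 21 chains were called, 12 lower and 9 higher, beside 29% of all genes tested (17.2% lower, 11.9% higher). The 12 were Col1a1, Col1a2, Col3a1, Col5a1, Col11a1, Col24a1, Col12a1, Col14a1, Col16a1, Col15a1, Col6a4 and Col8a1, and the 9 were Col11a2, Col27a1, Col9a3, Col20a1, Col4a1, Col4a2, Col4a5, Col18a1 and Col10a1. Of these, Col6a4 reached a mean of 10 reads in WT only, so it passed the filter through the group where it was higher. Without pairing and with 1 library left out, the count ranged from 1 without Bap1KO replicate 3 to 4 without Bap1KO replicate 1. It was above that range in unpaired runs with DESeq2, with no filter on low counts and with a higher minimum count, as given in the last section. Batch B stood low: its library was the lowest of 3 in both Bap1KO and WT for 19 of the 36 chains (52.8%), beside 20.7% of all genes tested, among them Col1a1, Col1a2, Col3a1, Col6a1 and Col14a1. Batch A was the lowest in both for 8 chains (22.2%), beside 19.4% of all genes tested, which included all 6 type IV chains.

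**Figure D2:**
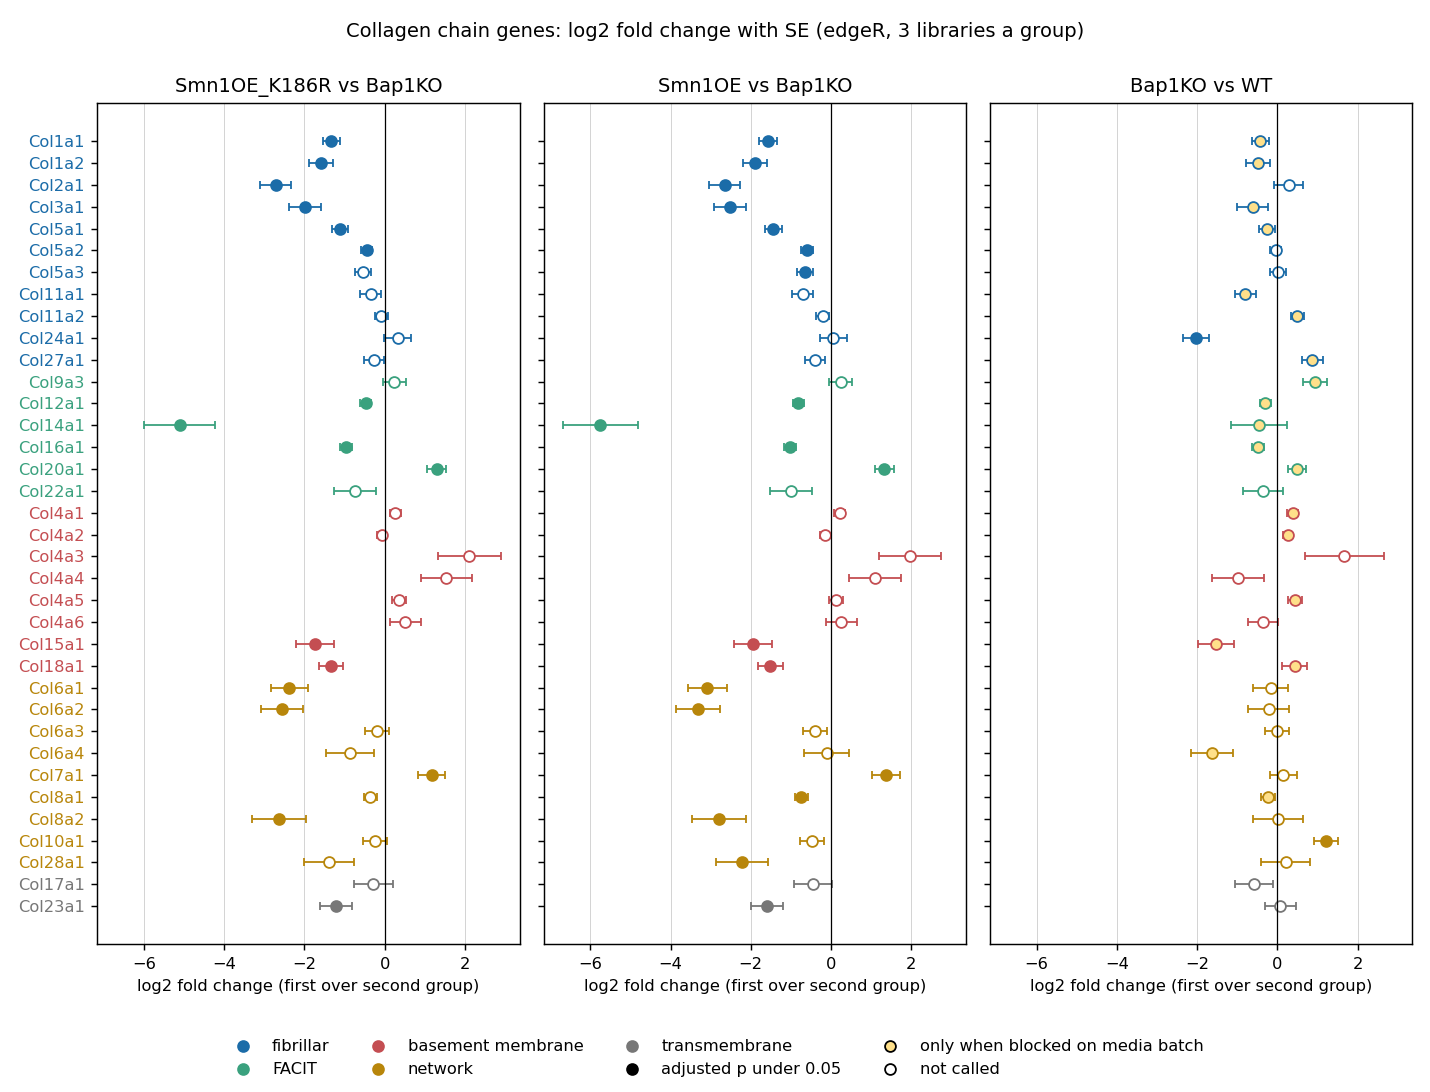
Log2 fold change with SE (horizontal axis, first group over second) of the 36 tested chains, ordered by class, in 3 comparisons with 3 libraries a group. Filled points are called at adjusted p under 0.05 and yellow ones only when paired by medium batch; 27 of 36 points (75%) lie left of 0 in each SMN panel, beside 50.4% of all genes tested in Smn1OE_K186R and 50.8% in Smn1OE, with Col14a1 farthest left at -5.11 in Smn1OE_K186R and -5.75 in Smn1OE.

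Fibrillar collagens came first in amount. Of the 11 fibrillar chains, 6 fell in Smn1OE_K186R and 7 in Smn1OE against Bap1KO and none rose. In Bap1KO against WT Col24a1 fell, and with pairing 6 were lower and 2 higher. Of all genes tested, 16.5% were lower and 16.1% higher in Smn1OE_K186R, and 17.7% lower and 15.8% higher in Smn1OE, against Bap1KO. In Bap1KO against WT 6.37% were lower and 3.36% higher, and with pairing 17.2% lower and 11.9% higher. The counts of the other classes below stand beside these same shares. Col1a1 and Col1a2 encode the chains of type I collagen. Col1a1 had 3638, 4446 and 3202 CPM in Smn1OE_K186R cells, 2655, 4154 and 2732 CPM in Smn1OE cells, 10700, 6829 and 10790 CPM in Bap1KO cells and 13320, 10400 and 14310 CPM in WT cells. Col1a2 had 1938, 2019 and 1200 CPM in Smn1OE_K186R cells, 1447, 1761 and 936 CPM in Smn1OE cells, 6397, 3242 and 5843 CPM in Bap1KO cells and 7695, 5422 and 8548 CPM in WT cells. For both chains all SMN libraries lay below all Bap1KO libraries, and Bap1KO overlapped WT, with Bap1KO replicate 2 the lowest of its group. Relative to Bap1KO, the edgeR log2 fold change of Col1a1 was -1.33 ± 0.22 (SE) in Smn1OE_K186R cells, adjusted p = 0.00154, and -1.57 ± 0.22 in Smn1OE cells, adjusted p = 0.000645. For Col1a2 the values were -1.59 ± 0.30 (adjusted p = 0.00289) in Smn1OE_K186R and -1.90 ± 0.30 (adjusted p = 0.00113) in Smn1OE, which is 3.0-fold lower in Smn1OE_K186R and 3.73-fold lower in Smn1OE. In Bap1KO against WT, Col1a1 was -0.43 ± 0.22 (adjusted p = 0.235) and Col1a2 -0.48 ± 0.29 (adjusted p = 0.324) without pairing, and -0.44 (adjusted p = 0.000959) and -0.52 (adjusted p = 0.000483) with it.

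The promoter of Col1a2 is shown because the gene is among the most abundant that fell, and its window of 300 bases around the transcription start (250 before, 50 after; RefSeq, GRCm38.p6, chr6:4505368-4505667, plus strand) holds the letters CCAAT, a common promoter motif. Capitals mark CCAAT or its reverse complement ATTGG, which occur 2 times here.
Col1a2 promoter: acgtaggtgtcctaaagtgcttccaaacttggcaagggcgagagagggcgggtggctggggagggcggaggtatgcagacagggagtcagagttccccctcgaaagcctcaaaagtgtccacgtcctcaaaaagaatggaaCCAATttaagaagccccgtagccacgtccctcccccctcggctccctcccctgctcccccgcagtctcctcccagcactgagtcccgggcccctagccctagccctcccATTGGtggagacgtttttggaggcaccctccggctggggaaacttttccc
Windows were at hand for 34 of the 42 genes, and 12 of the 34 (35.3%) held CCAAT on either strand, beside 41.1% of all 27025 genes with a window.

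Col3a1 encodes the single chain of type III collagen, found with type I in stretchable tissue. Col3a1 had 664, 699 and 426 CPM in Smn1OE_K186R cells, 392, 529 and 326 CPM in Smn1OE cells, 3662, 1090 and 2364 CPM in Bap1KO cells and 4074, 2171 and 4651 CPM in WT cells. Every SMN library lay below every Bap1KO and WT library, and batch B was lowest in both Bap1KO and WT. Col3a1 differed from Bap1KO on the log2 scale by -1.99 ± 0.40 (SE) in Smn1OE_K186R cells, adjusted p = 0.00374, and -2.51 ± 0.41 in Smn1OE cells, adjusted p = 0.00121. Bap1KO against WT gave -0.61 ± 0.38 (adjusted p = 0.341), and -0.71 with pairing (adjusted p = 0.00143).

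Type V chains start fibrils and set their width, and Col5a1 and Col5a2 moved by unequal amounts. Col5a1 had 1256, 1541 and 957 CPM in Smn1OE_K186R cells, 914, 1211 and 861 CPM in Smn1OE cells, 3147, 2015 and 2937 CPM in Bap1KO cells and 3432, 2702 and 3544 CPM in WT cells. Col5a2 had 2630, 3422 and 2912 CPM in Smn1OE_K186R cells, 2427, 2824 and 2866 CPM in Smn1OE cells, 4174, 3346 and 4720 CPM in Bap1KO cells and 3841, 3876 and 4908 CPM in WT cells. Col5a1 lay lower in every SMN library than in any Bap1KO library, whereas for Col5a2 replicate 2 of Smn1OE_K186R lay above replicate 2 of Bap1KO. On the log2 scale, Col5a1 against Bap1KO was -1.11 ± 0.21 (SE) in Smn1OE_K186R cells, adjusted p = 0.00272, and -1.44 ± 0.21 in Smn1OE cells, adjusted p = 0.000714. Col5a2 was -0.45 ± 0.15 (adjusted p = 0.0336) in Smn1OE_K186R and -0.59 ± 0.15 (adjusted p = 0.00959) in Smn1OE. The Col5a2 call in Smn1OE_K186R was lost without Bap1KO replicate 1 (0.0784), without Bap1KO replicate 3 (0.129), without Smn1OE_K186R replicate 1 (0.109), without Smn1OE_K186R replicate 3 (0.0794), with library totals as the only scaling (0.0608) and with a fit of the 2 groups alone (0.0717), over a range of 0.00405 to 0.129 for the adjusted p. Col5a3, another type V chain, was -0.54 in Smn1OE_K186R (adjusted p = 0.0586) and -0.64 in Smn1OE (adjusted p = 0.0302, lost without any of Bap1KO replicates 1 (0.0807) and 3 (0.0821) and Smn1OE replicates 2 (0.0505) and 3 (0.113), over a range of 0.000528 to 0.113).

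Col2a1, the chain of cartilage type II collagen, was low throughout. Col2a1 had 1.83, 2.41 and 3.24 CPM in Smn1OE_K186R cells, 2.64, 2.09 and 3.08 CPM in Smn1OE cells, 8.15, 24.7 and 16.1 CPM in Bap1KO cells and 9.75, 19.0 and 11.6 CPM in WT cells. All SMN libraries lay below the others, and the Bap1KO and WT libraries ran from 8.15 to 24.7 CPM with batch B highest in both. Against Bap1KO, Col2a1 had a log2 fold change of -2.71 ± 0.39 (SE) in Smn1OE_K186R cells, adjusted p = 0.000841, and -2.65 ± 0.39 in Smn1OE cells, adjusted p = 0.000745. Of other cartilage-type fibrillar chains, Col11a1 was -0.80 ± 0.27 in Bap1KO against WT (adjusted p = 0.0773; with pairing -0.84, adjusted p = 0.000104), and no Bap1KO library reached the WT range of 75.0 to 86.2 CPM. Col11a2 was 0.50 ± 0.17 in the same comparison (adjusted p = 0.0792; with pairing 0.00707), and Col27a1 was 0.87 ± 0.26 (adjusted p = 0.0508; with pairing 0.000135). The Col11a1 value passed without Bap1KO replicate 1 (0.0362), and the Col27a1 value passed without WT replicate 1 (0.0363) and without Bap1KO replicate 2 (0.0317), where the adjusted p ranged over 0.000104 to 0.213 and 0.000135 to 0.156 across all alternatives.

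Col24a1, a minor fibrillar chain found with type I in bone, was the chain called lower in Bap1KO against WT. Col24a1 had 1.17, 1.28 and 0.433 CPM in Smn1OE_K186R cells, 0.884, 0.865 and 0.662 CPM in Smn1OE cells, 0.879, 0.625 and 0.817 CPM in Bap1KO cells and 3.16, 3.07 and 3.23 CPM in WT cells. The 3 WT libraries lay close together, and each was above every library of the other groups. The log2 fold change in Bap1KO against WT was -2.03 ± 0.33 (SE), a 4.07-fold lower level, with an adjusted p of 0.00461 that stayed between 6.26e-08 and 0.0255 over the alternatives. Against Bap1KO it was 0.32 ± 0.33 in Smn1OE_K186R (adjusted p = 0.479) and 0.06 ± 0.34 in Smn1OE (adjusted p = 0.909).

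**Figure D3:**
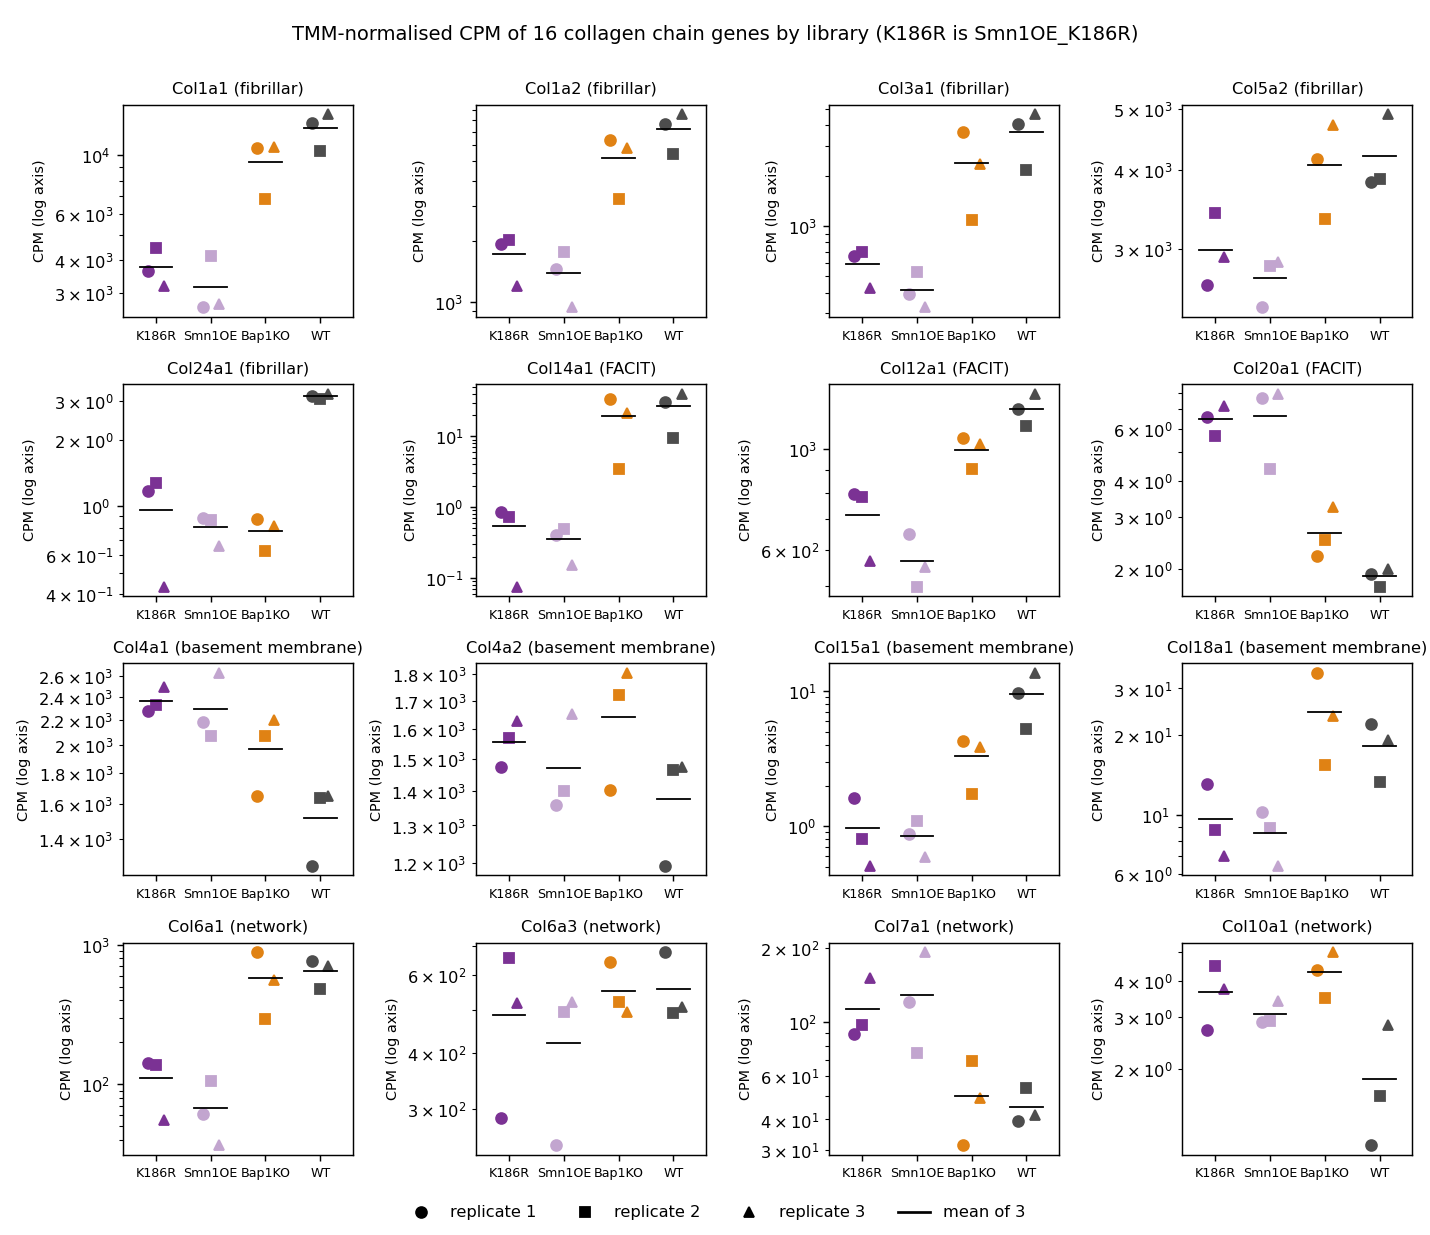
Normalised CPM (log axis, a different range in each panel) of 16 chains in Smn1OE_K186R, Smn1OE, Bap1KO and WT cells, with 1 symbol for each replicate and a line at the mean of 3. Col1a1, Col3a1, Col14a1 and Col6a1 are lower in all SMN libraries than in all Bap1KO libraries, Col24a1 is high in WT alone, and Col6a3 overlaps in all groups.

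Fibril-associated collagens held the most extreme value. Of the 8 FACIT chains 6 were tested, and in each SMN group against Bap1KO 3 fell (Col12a1, Col14a1, Col16a1) and Col20a1 rose. In Bap1KO against WT none was called, beside 9.72% of all genes tested, and 5 were with pairing, beside 29%. Col14a1, a marker of fibroblasts of loose matrix, coats fibrils and interacts with decorin. Col14a1 had 0.842, 0.712 and 0.0753 CPM in Smn1OE_K186R cells, 0.405, 0.492 and 0.151 CPM in Smn1OE cells, 33.3, 3.48 and 21.6 CPM in Bap1KO cells and 30.8, 9.5 and 40.1 CPM in WT cells. All SMN libraries were under 1 CPM, and the Bap1KO libraries ranged widely, with batch B lowest in Bap1KO and in WT. Relative to Bap1KO, the edgeR log2 fold change of Col14a1 was -5.11 ± 0.88 (SE) in Smn1OE_K186R cells, adjusted p = 0.00187, and -5.75 ± 0.93 in Smn1OE cells, adjusted p = 0.00121. Bap1KO against WT gave -0.46 ± 0.69 (adjusted p = 0.724; with pairing -0.69, adjusted p = 0.0254).

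Col12a1, a relative of type XIV in tendon and muscle sheaths, changed less. Col12a1 had 795, 786 and 566 CPM in Smn1OE_K186R cells, 650.5, 498 and 550.0 CPM in Smn1OE cells, 1055, 903 and 1025 CPM in Bap1KO cells and 1225, 1125 and 1324 CPM in WT cells. The 4 groups stepped in order without overlap except between the SMN groups, where replicates of Smn1OE_K186R and Smn1OE overlapped. Col12a1 differed from Bap1KO on the log2 scale by -0.47 ± 0.14 (SE) in Smn1OE_K186R cells, adjusted p = 0.0207, and -0.81 ± 0.14 in Smn1OE cells, adjusted p = 0.00149. Leaving out Bap1KO replicate 1 (0.062), Bap1KO replicate 3 (0.0574) or Smn1OE_K186R replicate 3 (0.0603) ended the Smn1OE_K186R call, over a range of 0.00161 to 0.062. In Bap1KO against WT it was -0.30 ± 0.14 (adjusted p = 0.186; with pairing 0.024). Col16a1, which links fibrils and cells, was -0.97 ± 0.15 in Smn1OE_K186R (adjusted p = 0.000998) and -1.03 ± 0.15 in Smn1OE (adjusted p = 0.000676) against Bap1KO, and -0.49 ± 0.15 in Bap1KO against WT (adjusted p = 0.0532; with pairing 0.000468; without Bap1KO replicate 1 0.0296, over a range of 0.000468 to 0.164).

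Col20a1 went the other way. Col20a1 had 6.62, 5.7 and 7.17 CPM in Smn1OE_K186R cells, 7.67, 4.4 and 7.93 CPM in Smn1OE cells, 2.21, 2.5 and 3.25 CPM in Bap1KO cells and 1.92, 1.74 and 2.0 CPM in WT cells. Both SMN groups lay above Bap1KO, and Bap1KO above WT, with no overlap. On the log2 scale, Col20a1 against Bap1KO was 1.29 ± 0.23 (SE) in Smn1OE_K186R cells, adjusted p = 0.00205, and 1.33 ± 0.23 in Smn1OE cells, adjusted p = 0.00156. In Bap1KO against WT it was 0.49 ± 0.23 (adjusted p = 0.201; with pairing 0.0448). Its exons share 79 bases with BX649560.1 on the same strand (GENCODE M21), which was at 17.3 ± 0.698 CPM in Smn1OE_K186R, 16.6 ± 2.40 in Smn1OE, 14.1 ± 2.74 in Bap1KO and 11.4 ± 1.92 in WT cells (SD, n = 3); how far its reads enter the Col20a1 count was not tested. Col9a3 was 0.94 ± 0.30 in Bap1KO against WT (adjusted p = 0.0668; with pairing 0.0281); it shares 234 exon bases with Tcfl5, on the other strand, which was at 21.3 ± 2.15 CPM in Bap1KO and 18.4 ± 0.380 CPM in WT cells.

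Basement membrane collagens were divided between type IV and the multiplexins. Of the 8 chains, all tested, only the multiplexins Col15a1 and Col18a1 fell in either SMN group against Bap1KO, and no type IV chain was called there in the test over all 12 libraries. Col4a1 and Col4a2, whose products form the common type IV trimer, are transcribed from one start region in opposite directions. Their promoter windows (RefSeq, GRCm38.p6) are shown because they overlap: Col4a1 at chr8:11312777-11313076 on the minus strand and Col4a2 at chr8:11312555-11312854 on the plus strand. Capitals mark the 78 bases that both windows hold, each printed 5′ to 3′ on its own gene's strand.
Col4a1 promoter: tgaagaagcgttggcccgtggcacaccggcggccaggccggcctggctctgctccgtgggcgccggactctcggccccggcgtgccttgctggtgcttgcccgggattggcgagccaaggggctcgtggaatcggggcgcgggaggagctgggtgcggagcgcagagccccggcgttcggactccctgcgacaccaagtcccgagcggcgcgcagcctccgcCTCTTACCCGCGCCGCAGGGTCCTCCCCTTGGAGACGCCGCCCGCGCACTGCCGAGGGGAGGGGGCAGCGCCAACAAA
Col4a2 promoter: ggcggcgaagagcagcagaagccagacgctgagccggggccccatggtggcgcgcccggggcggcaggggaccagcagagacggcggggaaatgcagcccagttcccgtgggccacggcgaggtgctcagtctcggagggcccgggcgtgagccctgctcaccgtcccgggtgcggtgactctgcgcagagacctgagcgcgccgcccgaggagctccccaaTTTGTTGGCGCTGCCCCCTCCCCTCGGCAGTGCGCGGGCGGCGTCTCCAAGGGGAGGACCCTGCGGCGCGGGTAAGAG
Each window holds CCAAT once, on either strand.

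Col4a1 had 2279, 2327 and 2492 CPM in Smn1OE_K186R cells, 2179, 2066 and 2628 CPM in Smn1OE cells, 1651, 2071 and 2199 CPM in Bap1KO cells and 1266, 1636 and 1652 CPM in WT cells. Col4a2 had 1473, 1567 and 1626 CPM in Smn1OE_K186R cells, 1358, 1399 and 1651 CPM in Smn1OE cells, 1403, 1720 and 1804 CPM in Bap1KO cells and 1192, 1464 and 1473 CPM in WT cells. The Col4a1 libraries of Smn1OE_K186R all lay above those of Bap1KO, those of Smn1OE overlapped them, and WT was below both SMN groups; for Col4a2 all groups overlapped. Against Bap1KO, Col4a1 was 0.26 ± 0.13 in Smn1OE_K186R (adjusted p = 0.153) and 0.22 ± 0.13 in Smn1OE (adjusted p = 0.237), and Col4a2 was -0.08 ± 0.12 (adjusted p = 0.637) in Smn1OE_K186R and -0.16 ± 0.12 (adjusted p = 0.315) in Smn1OE. In Bap1KO against WT, Col4a1 was 0.38 ± 0.13 (adjusted p = 0.0968; with pairing 0.38, adjusted p = 0.000663; without Bap1KO replicate 1 0.0412, over a range of 0.000663 to 0.311). Col4a2 was 0.26 ± 0.12 (adjusted p = 0.194; with pairing 0.25, adjusted p = 0.00656).

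The ratio of Col4a1 to Col4a2 separated the groups although neither chain was called against Bap1KO. In reads per kilobase of exon it was 1.37, 1.32 and 1.36 in Smn1OE_K186R cells, 1.42, 1.31 and 1.41 in Smn1OE cells, 1.04, 1.07 and 1.08 in Bap1KO cells and 0.942, 0.991 and 0.995 in WT cells. The 6 SMN libraries lay above all Bap1KO libraries and these above all WT libraries, and the SMN groups overlapped. Exact two-sided permutation tests gave p = 0.1, the smallest possible, between either SMN group and Bap1KO and between Bap1KO and WT, and p = 0.6 between Smn1OE_K186R and Smn1OE. Markers of pericytes, which also make type IV, or of smooth muscle were summed (5 genes). Sums were 146 to 273 CPM in Smn1OE_K186R, 162 to 245 in Smn1OE, 99.3 to 161 in Bap1KO and 124 to 176 in WT. Most of each sum was Myh11, with means of 203.5 CPM in Smn1OE_K186R, 198.3 in Smn1OE, 116.3 in Bap1KO and 127.8 in WT. Mean Kcnj8 was 0.61 CPM in Smn1OE_K186R and 0.99 in Smn1OE, below 1.49 in Bap1KO, although libraries overlapped. Mean Abcc9 was 0.66, 0.59 and 0.57 CPM in these groups. Rgs5 and Myh11 were called higher in both SMN groups against Bap1KO. The Myh11 call was lost once Bap1KO replicate 1 or 3, or that SMN group's replicate 2 or 3, was omitted. The part of these markers was not tested. Of all genes tested, 16.1% were called higher in Smn1OE_K186R and 15.8% in Smn1OE, against Bap1KO. Col4a1 and Col4a2 share 22 exon bases on opposite strands, and the strand setting of the counting is not stated in the sources used here.

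The other type IV chains were far lower. Col4a5, on the X chromosome, had 78.6 to 108 CPM in Smn1OE_K186R cells, 75.8 to 85.6 CPM in Smn1OE cells, 60.3 to 87.5 CPM in Bap1KO cells and 39.8 to 64.7 CPM in WT cells. It was 0.44 ± 0.18 in Bap1KO against WT (adjusted p = 0.136; with pairing 0.00179) and 0.35 ± 0.18 in Smn1OE_K186R against Bap1KO (adjusted p = 0.146). Col4a3, the kidney and lung chain, reached at most 0.625 CPM, and its mean passed 10 reads in the SMN groups only; it was 2.11 ± 0.78 in Smn1OE_K186R (adjusted p = 0.0551) and 1.97 ± 0.78 in Smn1OE (adjusted p = 0.0696), and passed in both without Bap1KO replicate 2 (0.0381 and 0.0444, over ranges of 0.0156 to 0.105 and 0.0217 to 0.183) and with batch as a random effect (0.0156 and 0.0217). Col4a3 shares 563 exon bases with C430014B12Rik on the other strand (GENCODE M21). That gene averaged 0.427 ± 0.0859 CPM in Smn1OE_K186R, 0.428 ± 0.224 in Smn1OE, 0.4675 ± 0.2005 in Bap1KO and 0.404 ± 0.129 in WT cells (SD, n = 3). How far its reads enter the Col4a3 count was not tested. Col4a4 and Col4a6 were low in every library and were called in no comparison with Bap1KO.

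Col15a1 and Col18a1 encode the multiplexins, which tie basement membranes to the matrix below; endostatin is cut from type XVIII. Col15a1 had 1.62, 0.799 and 0.508 CPM in Smn1OE_K186R cells, 0.869, 1.09 and 0.587 CPM in Smn1OE cells, 4.3, 1.74 and 3.83 CPM in Bap1KO cells and 9.65, 5.26 and 13.7 CPM in WT cells. Col18a1 had 13.1, 8.78 and 7.02 CPM in Smn1OE_K186R cells, 10.3, 8.93 and 6.43 CPM in Smn1OE cells, 34.3, 15.4 and 23.7 CPM in Bap1KO cells and 22.1, 13.3 and 19.1 CPM in WT cells. Col15a1 stepped down without overlap, WT above Bap1KO and Bap1KO above both SMN groups, whereas Col18a1 of Bap1KO overlapped WT and all SMN libraries lay below both. Against Bap1KO, Col15a1 had a log2 fold change of -1.74 ± 0.47 (SE) in Smn1OE_K186R cells, adjusted p = 0.0157, and -1.94 ± 0.48 in Smn1OE cells, adjusted p = 0.00947. Col18a1 was -1.34 ± 0.31 (adjusted p = 0.00725) in Smn1OE_K186R and -1.52 ± 0.31 (adjusted p = 0.00384) in Smn1OE. In Bap1KO against WT, Col15a1 was -1.53 ± 0.45 (adjusted p = 0.0503; with pairing -1.53, adjusted p = 0.00012; without WT replicate 2 0.0415, over a range of 0.00012 to 0.165), and Col18a1 was 0.43 ± 0.30 (adjusted p = 0.403; with pairing 0.0108). In Smn1OE_K186R the Col15a1 value did not pass once Bap1KO replicate 1 (0.0557), Smn1OE_K186R replicate 2 (0.0548) or Smn1OE_K186R replicate 3 (0.051) had been omitted, over a range of 7.85e-05 to 0.0557.

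Network collagens included type VI, the filament collagen of muscle whose genes are mutated in Ullrich and Bethlem myopathy. Of the 11 network chains 9 were tested, and 3 fell and 1 rose in Smn1OE_K186R, 5 fell and 1 rose in Smn1OE, against Bap1KO. Of all genes tested, 32.6% were called in Smn1OE_K186R and 33.5% in Smn1OE. Col6a1 had 142, 137 and 55.7 CPM in Smn1OE_K186R cells, 61.6, 106 and 36.7 CPM in Smn1OE cells, 882, 295 and 558 CPM in Bap1KO cells and 762, 483 and 706 CPM in WT cells. Col6a2 had 88.8, 77.2 and 27.8 CPM in Smn1OE_K186R cells, 35.1, 60.7 and 19.4 CPM in Smn1OE cells, 609.9, 179 and 352 CPM in Bap1KO cells and 554, 307 and 466 CPM in WT cells. Col6a3 had 286, 655 and 520.3 CPM in Smn1OE_K186R cells, 248, 495 and 522 CPM in Smn1OE cells, 642, 523 and 497 CPM in Bap1KO cells and 677, 493 and 509 CPM in WT cells. Every SMN library was below every Bap1KO library for Col6a1 and Col6a2, and batches B and F stood lowest in their groups, but Col6a3 overlapped in all 4 groups, with batch D low.

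Relative to Bap1KO, the edgeR log2 fold change of Col6a1 was -2.38 ± 0.47 (SE) in Smn1OE_K186R cells, adjusted p = 0.00354, and -3.09 ± 0.48 in Smn1OE cells, adjusted p = 0.00105. Col6a2 was -2.56 ± 0.53 (adjusted p = 0.00455) in Smn1OE_K186R and -3.31 ± 0.55 (adjusted p = 0.00137) in Smn1OE, which is 5.88-fold lower in Smn1OE_K186R and 9.89-fold lower in Smn1OE. Col6a3 was -0.19 ± 0.30 (adjusted p = 0.663) in Smn1OE_K186R and -0.39 ± 0.30 (adjusted p = 0.332) in Smn1OE. None of the 3 chains was called in Bap1KO against WT, at -0.17 for Col6a1 (paired adjusted p = 0.195), -0.22 for Col6a2 (0.139) and -0.02 for Col6a3 (0.948).

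The ratio of Col6a1 to Col6a3, in reads per kilobase of exon, was 1.35, 0.571 and 0.292 in Smn1OE_K186R cells, 0.677, 0.584 and 0.192 in Smn1OE cells, 3.75, 1.54 and 3.07 in Bap1KO cells and 3.08, 2.67 and 3.79 in WT cells. Every SMN library lay below every Bap1KO and WT library, and Bap1KO overlapped WT. The ratio of Col6a1 to Col6a2 was 3.40 ± 0.388 in Smn1OE_K186R cells, 3.42 ± 0.160 in Smn1OE cells, 2.97 ± 0.198 in Bap1KO cells and 2.83 ± 0.193 in WT cells (SD, n = 3 each). All Smn1OE libraries lay above all Bap1KO libraries (exact permutation p = 0.1), while Smn1OE_K186R overlapped Bap1KO (exact permutation p = 0.2). Among the fibrillar partners, Col5a2 to Col5a1 was 1.85, 1.97 and 2.69 in Smn1OE_K186R cells, 2.35, 2.06 and 2.95 in Smn1OE cells, 1.17, 1.47 and 1.42 in Bap1KO cells and 0.991, 1.27 and 1.23 in WT cells. Here too the SMN libraries lay apart, above Bap1KO. For each of Col6a1 to Col6a3 and Col5a2 to Col5a1 the exact permutation p was 0.1, the smallest possible, for either SMN group against Bap1KO. Col1a1 to Col1a2 averaged 4.26 ± 0.754 in Smn1OE_K186R, 4.49 ± 1.02 in Smn1OE, 3.55 ± 0.413 in Bap1KO and 3.36 ± 0.241 in WT cells, with exact permutation p = 0.2 for Smn1OE_K186R and p = 0.3 for Smn1OE, against Bap1KO. In all, 7 such ratios were computed, and with a floor of 0.1 none can pass 0.05, adjusted or not.

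**Figure D4:**
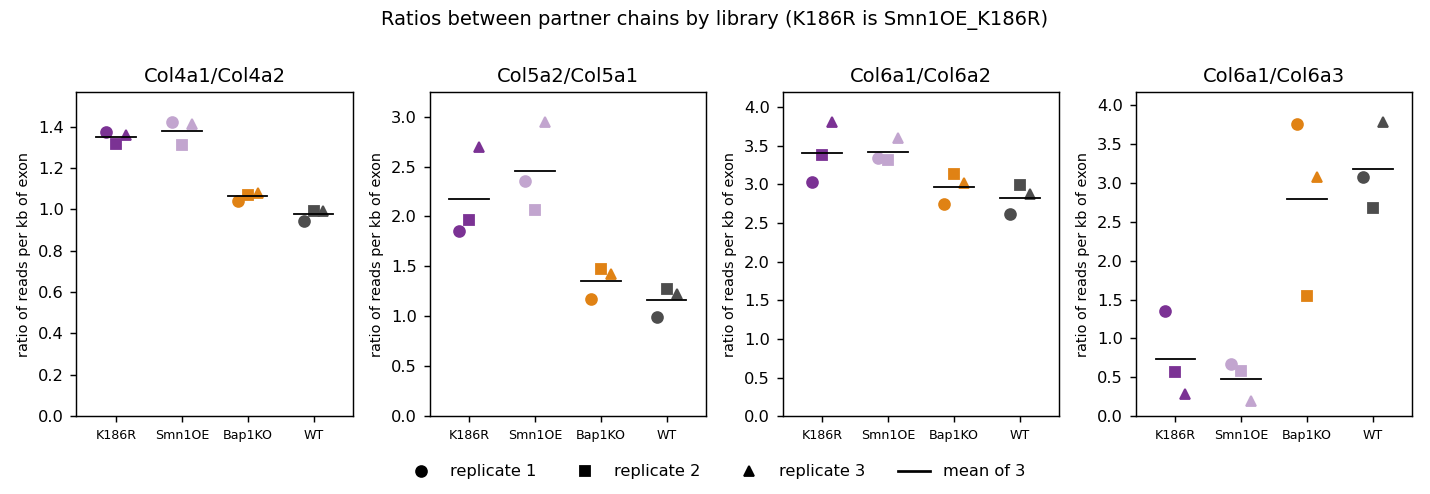
Ratio of reads per kilobase of exon between 4 pairs of chains (vertical axes from 0) in each library, with a line at the mean of 3. Col4a1/Col4a2 and Col5a2/Col5a1 lie higher and Col6a1/Col6a3 lower in all 6 SMN libraries than in all Bap1KO libraries, and Col6a1/Col6a2 is higher than in Bap1KO in all Smn1OE libraries but overlaps in Smn1OE_K186R.

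Col7a1, the anchoring fibril chain known from skin, was the network chain that rose. Col7a1 had 89.4, 96.8 and 151 CPM in Smn1OE_K186R cells, 121, 74.3 and 192 CPM in Smn1OE cells, 31.4, 69.1 and 49.1 CPM in Bap1KO cells and 39.4, 53.6 and 41.7 CPM in WT cells. The lowest SMN library, Smn1OE replicate 2, was only just above the highest Bap1KO library, replicate 2. Col7a1 differed from Bap1KO on the log2 scale by 1.17 ± 0.34 (SE) in Smn1OE_K186R cells, adjusted p = 0.0209, and 1.37 ± 0.34 in Smn1OE cells, adjusted p = 0.0101. The Smn1OE_K186R result missed the threshold on omission of Bap1KO replicate 1 (0.0788), Bap1KO replicate 3 (0.0602) or Smn1OE_K186R replicate 3 (0.0796), over a range of 1.97e-05 to 0.0796. Keratinocyte markers (4) were under 1 CPM in every library.

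Col8a2, with Col8a1 the chains of the short-chain type VIII of vessels and cornea, varied widely within Bap1KO. Col8a2 had 0.692, 1.57 and 0.678 CPM in Smn1OE_K186R cells, 0.644, 1.37 and 0.606 CPM in Smn1OE cells, 12.1, 1.52 and 4.66 CPM in Bap1KO cells and 7.74, 2.88 and 7.44 CPM in WT cells. Bap1KO spanned 1.52 to 12.1 CPM, and its lowest library lay below Smn1OE_K186R replicate 2. On the log2 scale, Col8a2 against Bap1KO was -2.62 ± 0.67 (SE) in Smn1OE_K186R cells, adjusted p = 0.0121, and -2.79 ± 0.68 in Smn1OE cells, adjusted p = 0.0091; without Bap1KO replicate 1 the Smn1OE_K186R value no longer passed (0.0603, over a range of 5.35e-06 to 0.0603). Col8a1 was -0.35 ± 0.16 (adjusted p = 0.115) in Smn1OE_K186R and -0.74 ± 0.16 (adjusted p = 0.00583) in Smn1OE, and -0.23 ± 0.16 in Bap1KO against WT (adjusted p = 0.399; with pairing 0.0118). Col28a1, a von Willebrand domain chain, was -1.39 ± 0.63 (adjusted p = 0.11; passing, at a rounded 0.05, without Smn1OE_K186R replicate 1, over a range of 0.00369 to 0.279) in Smn1OE_K186R and -2.22 ± 0.65 (adjusted p = 0.0222) in Smn1OE, where omission ended the call for Bap1KO replicate 1 (0.0709), Bap1KO replicate 3 (0.0575) or Smn1OE replicate 3 (0.0704), over a range of 1.19e-05 to 0.0709.

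Col10a1, the chain of hypertrophic cartilage, was the one called higher in Bap1KO against WT. Col10a1 had 2.72, 4.48 and 3.75 CPM in Smn1OE_K186R cells, 2.89, 2.91 and 3.41 CPM in Smn1OE cells, 4.35, 3.49 and 5.01 CPM in Bap1KO cells and 1.09, 1.62 and 2.83 CPM in WT cells. All Bap1KO libraries lay above all WT libraries, with replicate 3 the highest in both. The log2 fold change was 1.21 ± 0.31 (SE), a 2.32-fold higher level, adjusted p = 0.0292 and 0.000739 with pairing. The call ended without WT replicate 1 (0.0986), WT replicate 2 (0.0952), Bap1KO replicate 1 (0.0501) or Bap1KO replicate 3 (0.105) and in a fit of the 2 groups alone (0.0561), over a range of 0.000739 to 0.105. Col10a1 lies inside Nt5dc1 on the other strand (GENCODE M21), and Nt5dc1 was at 9.04 ± 0.713 CPM in Bap1KO cells and 5.94 ± 0.959 CPM in WT cells (SD, n = 3); its part in the Col10a1 count was not tested. Col6a4, a type VI chain, was 0.223, 0.168 and 0.0363 CPM in Bap1KO cells and 0.547, 0.503 and 0.309 CPM in WT cells, without overlap. It was -1.63 ± 0.53 (adjusted p = 0.0705) and, with pairing, -1.76 (adjusted p = 0.0194); only in WT did its mean reach 10 reads, so it passed the filter through the group where it was higher.

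Transmembrane collagens were all low. Of the 4, Col17a1 and Col23a1 were tested, and Col23a1 fell in both SMN groups. Col23a1 had 0.962, 0.683 and 0.414 CPM in Smn1OE_K186R cells, 0.749, 0.477 and 0.341 CPM in Smn1OE cells, 2.22, 0.961 and 1.61 CPM in Bap1KO cells and 1.5, 1.19 and 1.87 CPM in WT cells. Smn1OE lay below Bap1KO without overlap, but Smn1OE_K186R replicate 1 lay at the level of Bap1KO replicate 2. Against Bap1KO, Col23a1 had a log2 fold change of -1.21 ± 0.40 (SE) in Smn1OE_K186R cells, adjusted p = 0.0353, and -1.60 ± 0.41 in Smn1OE cells, adjusted p = 0.0108. Omitting Bap1KO replicate 1 (0.144), Bap1KO replicate 3 (0.0743), Smn1OE_K186R replicate 2 (0.0817) or Smn1OE_K186R replicate 3 (0.109) took the Smn1OE_K186R value past 0.05, as did a fit of the 2 groups alone (0.0694), over a range of 0.0125 to 0.144. Col17a1, the hemidesmosome chain, was -0.28 in Smn1OE_K186R and -0.45 in Smn1OE against Bap1KO and -0.58 in Bap1KO against WT, called in none.

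The 2 forms of SMN were compared directly. In Smn1OE_K186R against Smn1OE edgeR called none of the 36 chains and 0% of all genes tested; 2 chains and 388 genes had an unadjusted p under 0.05, and DESeq2 called none of the chains. The median log2 fold change of the 36 was 0.22, against 0.01 over all genes tested, and 5 of 36 were negative (13.9%), beside 48.7% of all genes tested. With the libraries paired by medium batch 1 chain passed, Col8a1, beside a background of 0.289%. Col8a1 had 136, 120.3 and 90.2 CPM in Smn1OE_K186R cells, 105, 91.0 and 69.2 CPM in Smn1OE cells, 152, 135 and 156 CPM in Bap1KO cells and 161, 165 and 195 CPM in WT cells. Smn1OE_K186R was above Smn1OE within each of the 3 batches, although the groups overlapped. The paired log2 fold change was 0.38 (adjusted p = 0.0229, against 0.997 without pairing, over a range of 0.0229 to 1). The errors were wide for several chains: Col6a1 was 0.71 ± 0.45 and Col14a1 0.64 ± 1.02 (SE).

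Each SMN group was also set against WT. That comparison joins the Bap1 deletion treatment, the vector, medium batch and sex of origin, which cannot be told apart. Here 27 chains were called in Smn1OE_K186R (7 higher, 20 lower) beside 50.5% of all genes tested (24% higher, 26.5% lower), and 28 in Smn1OE (6 higher, 22 lower) beside 50.4% (23.8% higher, 26.6% lower). With medium batch as a random effect 28 were called in each, 8 higher in Smn1OE_K186R beside 50.4% (23.4% higher, 27% lower) and 7 higher in Smn1OE beside 50.1% (23.4% higher, 26.7% lower). Higher in both were Col4a1 (0.64 in Smn1OE_K186R and 0.59 in Smn1OE), Col4a3, Col4a5, Col7a1, Col9a3 and Col20a1 (1.78 in Smn1OE_K186R and 1.82 in Smn1OE). Col4a3 reached a mean of 10 reads in the SMN groups only and Col6a4, among the lower, in WT only. Each thus entered the test through the groups where it was higher, which favours a difference. Lower by the most were Col14a1 (-5.57 in Smn1OE_K186R and -6.21 in Smn1OE), Col15a1 (-3.27 in Smn1OE_K186R and -3.48 in Smn1OE) and, in Smn1OE, Col6a2 (-3.52). Col22a1 in Smn1OE (adjusted p = 0.0451, range 0.0185 to 0.126) ceased to pass whichever library of either group was left out. Col5a3 in Smn1OE_K186R (0.0491, range 0.00337 to 0.161) was lost in several alternatives. Leaving out single libraries also ended calls of Col4a5, Col5a3, Col6a4 and Col28a1 in Smn1OE. In Smn1OE_K186R it also ended those of Col5a2, Col10a1, Col18a1 and Col23a1.

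Genes that modify and fold collagen fell in both SMN groups. Of 21 genes for modification and folding 20 were tested, and 18 fell in each SMN group against Bap1KO, at a median of -0.68 in Smn1OE_K186R and -0.75 in Smn1OE. Of all genes tested, 16.5% were lower and 16.1% higher in Smn1OE_K186R and 17.7% lower and 15.8% higher in Smn1OE, with a median of -0.01 in both, and the counts of the lists that follow stand beside these shares. Serpinh1, the collagen chaperone HSP47, had 1406, 1528 and 1577 CPM in Smn1OE_K186R cells, 1286, 1645 and 1477 CPM in Smn1OE cells, 2646, 2138 and 2584 CPM in Bap1KO cells and 2977, 2666 and 2859 CPM in WT cells, all SMN libraries below all others. Among the prolyl and lysyl hydroxylases, P4ha3 was -1.42 ± 0.29 in Smn1OE_K186R and -1.56 ± 0.29 in Smn1OE, P4ha2 -1.14 ± 0.26 in Smn1OE_K186R and -1.38 ± 0.26 in Smn1OE, and Plod1 -1.12 ± 0.16 in Smn1OE_K186R and -1.26 ± 0.16 in Smn1OE. P3h2, the prolyl 3-hydroxylase that acts on type IV collagen, was 0.71 ± 0.25 in Smn1OE_K186R (adjusted p = 0.0459, 0.0652 with batch as a random effect, 0.0193 to 0.158 over the alternatives, and lost without any of the Bap1KO libraries or Smn1OE_K186R replicates 2 or 3) and 0.64 ± 0.25 in Smn1OE (adjusted p = 0.0661). In Bap1KO against WT 1 of the 20 fell without pairing, beside 6.37% of all genes tested lower, Crtap at -0.40 ± 0.11 (adjusted p = 0.043, 0.00148 to 0.142 over the alternatives, lost without any WT library or Bap1KO replicates 2 or 3), and 11 fell with it, beside 17.2%.

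Later steps were mixed. Of the 6 tested genes for export of procollagen in large carriers, none was called in Smn1OE against Bap1KO and Mia2 alone in Smn1OE_K186R, at 0.25 ± 0.07 (adjusted p = 0.0179, 0.00368 to 0.0968 over the alternatives, lost without Bap1KO replicate 1). Among 8 genes of propeptide cleavage, 3 fell and 2 rose in each SMN group: the N-propeptidase Adamts2 was -1.69 ± 0.35 in Smn1OE_K186R and -2.11 ± 0.35 in Smn1OE, the enhancer Pcolce -1.04 ± 0.12 in Smn1OE_K186R and -1.13 ± 0.12 in Smn1OE, and the tolloid protease Tll1 1.83 ± 0.32 in Smn1OE_K186R and 1.87 ± 0.32 in Smn1OE. Pcolce2 rose in Bap1KO against WT, at 1.04 ± 0.12 (adjusted p = 0.00103), and fell in both SMN groups. Of 5 lysyl oxidases, which crosslink the fibrils, Lox, Loxl1, Loxl2 and Loxl3 fell in both SMN groups, Lox at -0.79 ± 0.21 in Smn1OE_K186R (4.56e-05 to 0.0505 over the alternatives, not passing without Bap1KO replicate 1) and -1.23 ± 0.21 in Smn1OE. Loxl4 rose in Smn1OE_K186R, at 0.58 ± 0.17 (adjusted p = 0.0212, 0.00204 to 0.0826 over the alternatives, not passing without Bap1KO replicate 1 or Smn1OE_K186R replicate 2), and was 0.38 ± 0.17 in Smn1OE (adjusted p = 0.1).

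Of 7 fibril-binding proteins, 5 fell in Smn1OE_K186R and 6 in Smn1OE against Bap1KO, beside 16.5% of all genes tested lower in Smn1OE_K186R and 17.7% in Smn1OE. For Bap1KO against WT, edgeR called none of the 7 without pairing, beside 9.72% of all genes tested, and 3 lower with it, beside 17.2%: Lum at -1.64 (adjusted p = 0.00547), Dcn at -1.69 (1.62e-05) and Bgn at -0.24 (0.0169). In the export, propeptide cleavage, crosslinking and breakdown lists, pairing added Mia2 and Ctsk as higher and Pcolce, Adamts14, Loxl3, Loxl4 and Mmp2 as lower. Fmod had 46.0, 38.4 and 25.3 CPM in Smn1OE_K186R cells, 17.9, 26.5 and 14.6 CPM in Smn1OE cells, 414, 162 and 331 CPM in Bap1KO cells and 336, 208 and 383 CPM in WT cells. This small proteoglycan, which steers fibril growth, was -3.05 ± 0.37 in Smn1OE_K186R and -3.94 ± 0.39 in Smn1OE, and the fibril catalyst Comp was -3.21 ± 0.40 in Smn1OE_K186R and -3.68 ± 0.41 in Smn1OE. Lum was -3.73 ± 1.08 in Smn1OE_K186R and -3.21 ± 1.04 in Smn1OE, but neither call held with batch as a random effect (adjusted p = 0.115 and 0.12) or without Bap1KO replicate 1 or replicate 1 or 3 of the SMN group (1.69e-05 to 0.212 and 8.03e-05 to 0.433 over the alternatives). Of the 4 tenocyte markers, Tnmd and Thbs4 were called lower in both SMN groups against Bap1KO; the 4 summed to 13.8 to 19.6 CPM in Smn1OE_K186R cells, 12.5 to 14.9 CPM in Smn1OE cells, 43.2 to 129 CPM in Bap1KO cells and 62.2 to 127 CPM in WT cells. Scx, the defining factor of tendon cells, was not called in those comparisons, at 8.19, 4.97 and 6.61 CPM in Smn1OE_K186R, 8.27, 6.07 and 5.98 in Smn1OE and 9.82, 7.39 and 9.35 in Bap1KO, and was higher in Bap1KO than in WT, at 5.23, 3.33 and 4.01 CPM. Their part in these results was not tested.

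Of 8 receptors tested, Itga2 fell and Ddr2 rose in Bap1KO against WT, 2 rose and 3 fell in Smn1OE_K186R, and 2 rose and 4 fell in Smn1OE, against Bap1KO. These are 2, 5 and 6 of 8, beside 9.72%, 32.6% and 33.5% of all genes tested in those comparisons. With pairing 5 of 8 were called in Bap1KO against WT, beside 29%: Itga1, Itga2 and Itga11 lower and the collagen receptor kinases Ddr1 and Ddr2 higher. Without pairing the Ddr2 value, 0.44 ± 0.11 (adjusted p = 0.0315), did not pass once Bap1KO replicate 2 or 3 or WT replicate 1 or 2 was omitted, with adjusted p over the alternatives from 0.000179 to 0.115. Itga2, the integrin chain that binds fibrillar and type IV collagen, was 0.521, 1.1 and 0.853 CPM in Bap1KO cells and 2.62, 2.88 and 3.82 CPM in WT cells, without overlap, with a log2 fold change of -1.91 ± 0.26 (adjusted p = 0.002); against Bap1KO it was higher, at 1.36 ± 0.26 in Smn1OE_K186R and 1.08 ± 0.26 in Smn1OE. Itga11, the type I collagen integrin of fibroblasts, fell in both SMN groups, at -3.30 ± 0.60 in Smn1OE_K186R and -4.04 ± 0.63 in Smn1OE, and was -0.57 ± 0.54 in Bap1KO against WT (adjusted p = 0.548; with pairing -0.73, adjusted p = 0.0248). Fap, the fibroblast activation protease, was 0.208, 0.152 and 0.163 CPM in Bap1KO cells and 1.22, 1.37 and 1.3 CPM in WT cells, a log2 fold change of -2.87 ± 0.36 (adjusted p = 0.00142). The gelatinase Mmp9 rose in the SMN groups, at 1.82 ± 0.31 in Smn1OE_K186R and 1.93 ± 0.31 in Smn1OE, as did the collagenase Mmp13, at 1.72 ± 0.42 in Smn1OE_K186R and 1.68 ± 0.42 in Smn1OE against Bap1KO, with 2 of the 6 tested breakdown genes lower in each.

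**Figure D5:**
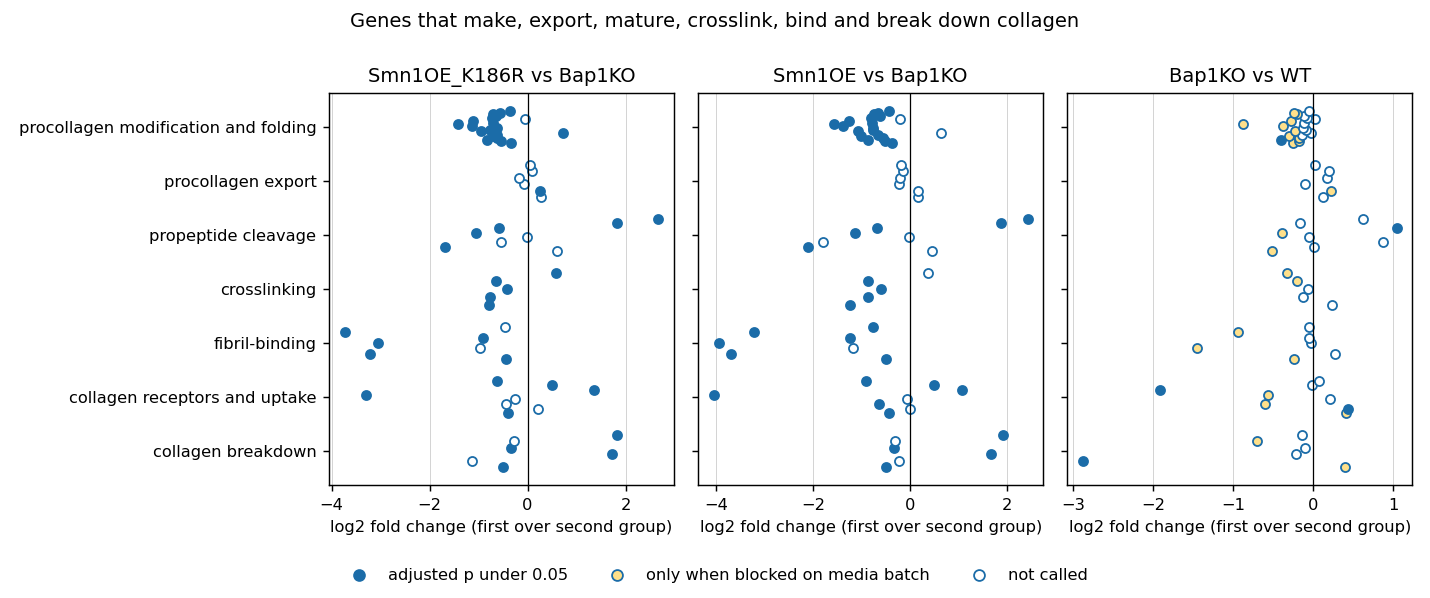
Log2 fold change (horizontal axis, first group over second) of the tested genes in 7 lists that make, export, cleave, crosslink, bind, sense and break down collagen, 1 point a gene, in 3 comparisons. Points for modification and folding lie left of 0 in both SMN panels except P3h2, and the lowest points of Bap1KO against WT are Fap at -2.87 and Itga2 at -1.91.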

How the data were processed

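RNA from the 12 cultured samples was sequenced, and the authors deposited read counts per gene. Per the submitters' processing notes, the build named is GRCm39 and the tools, with no roles given, are STAR 2.6.1 and HTSeq 0.9.1, beside CASAVA 1.8.2, DESeq2 and cutadapt 1.4.2; the strand setting is not given in the sources used here. Of the 55335 gene rows, 55154 matched a symbol. The 5 closing rows that name no gene, 11.1 to 14.6% of each file's sum, were left out.

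Counts were fitted with edgeR 4.0.16 (TMM, filterByExpr at a minimum count of 10, quasi-likelihood test, 4 group means, 12 libraries, 8 residual degrees of freedom), with Benjamini-Hochberg adjustment over the 16597 genes tested and a threshold of 0.05. The procedure was tested on simulated data. Every adjusted p without another tool named is from edgeR, and fold changes of lowly counted genes depend on the prior count of 0.125. Exon lengths and overlaps came from GENCODE M21 and promoters from RefSeq, both on GRCm38, so none of their coordinates was joined to the files. Alternatives used DESeq2 1.42.0 and limma 3.58.1 in R 4.3.3.

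The labels give the same medium batch to equal replicate numbers of Bap1KO and WT, and of both SMN groups. Deviations from the group means correlated within each pair, with r of 0.311, 0.435 and 0.24 for Bap1KO and WT and 0.384, 0.302 and 0.431 for the SMN groups, so paired values are given for the chains and lists whose calls they change. Between an SMN group and Bap1KO or WT no batch is shared.

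The collagen genes and all gene lists were chosen with earlier results of these data known. Values in every library were given for 14 chains of main collagen types, for chains called with an absolute log2 fold change of at least 1 in Bap1KO against WT (paired or not) or in both SMN groups against Bap1KO, and for any called between the SMN groups. Genes of other lists were named by size, up to 4 a comparison; further genes were picked after their values were seen.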

Additional observations from a re-analysis of the deposited data

How the results depend on the processing

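Most of the collagen calls kept their side of the threshold. No called value changed its direction under any alternative run. The count of chains called in Bap1KO against WT, 2 in the analysis as reported, was 8 with no filter on low counts, 5 with a minimum count of 50, 9 with DESeq2 and 21 with the medium batch as a replicate block; it ran from 1 to 4 when 1 library was left out. In Smn1OE_K186R against Bap1KO it ran from 11 to 19 when 1 library was left out, beside 17. Each run counted all chains that passed its own filter, so these counts can include chains outside the 36. In Smn1OE_K186R against Smn1OE the replicate block gave 1 in place of 0. The causes of these shifts were not tested. No paired analysis was possible between an SMN group and Bap1KO or WT because they share no medium batch. Each of the 36 tested chains gave 1 value under each alternative in which it had an adjusted p. Of these, 428 values of Smn1OE_K186R against Bap1KO stayed on their side, 13 came to pass and 21 ceased to. For Smn1OE against Bap1KO these were 446, 9 and 7, and for Bap1KO against WT 411, 44 and 5. Depth limited Col4a3, Col4a4, Col6a4 and the 6 chains that could not be tested.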
